A study of Mus musculus with 6 samples.

Results

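The collagen genes are the genes that encode the chains of collagen, taken here as every gene whose symbol is Col, a number, the letter a and a number, and nothing more. On the array used, 42 of 18193 named genes were collagen genes, read by 82 probe sets, and the probe set with the highest mean signal stood for its gene. All 42 matched a gene of the RefSeq mouse table. Of these, 28 were bright enough to be tested, and the 14 that were not are named with their signals further on. The members were picked by symbol alone, although the family was chosen with earlier results of these data known.

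Expression was measured in whole mammary glands, 1 mouse per array, from 6 females whose background mixed 129, FVB and Black Swiss, to find genes regulated by Brca1. Each of 3 stages holds 1 control and 1 mutant. The virgin pair was 6 months old, the control Brca1 D+/+;p53+/- and the mutant Brca1 D11/D11;p53+/-. The lactating pair, aged 2 months and on day 1 of lactation, carried the same genotypes. The pregnant pair was taken on day 16.5 of pregnancy at 5 months, the control Brca1 +/co/MMTV-Cre and the mutant Brca1 co/co/MMTV-Cre, so that both carried the Cre recombinase, driven by the mouse mammary tumour virus promoter, which acts mainly in epithelium. The series text gives the germline D11 genotype with p53+/- for all 3 mutants, and the sample labels are followed here. Both virgin and both lactating mice thus lacked 1 copy of p53, also the controls, whereas no p53 allele is given for the pregnant pair.

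Collagens are proteins of 3 chains wound into a triple helix. Fibrillar collagens, mainly types I, III and V, form the tensile fibres of stroma. Type IV forms the network of basement membranes, type VI forms beaded filaments that link cells to the matrix, and fibril-associated collagens coat the fibres. In the mammary gland most collagen is made by fibroblasts of the stroma that surrounds ducts and fat, and the basement membrane lies between epithelium and stroma.

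The values are MAS5 signals, linear intensities with no fixed unit, and they compare arrays for 1 probe set, not one gene with another. The 2%-trimmed mean was 500 on each array, the mark of a common scaling, yet the median signal ran from 119.9 in the virgin control to 230.8 in the lactating control. The ratio of 3' to 5' probe sets, a sign of RNA quality, was 2.74 and 2.03 for beta-actin in the virgin pair, against 1.37 to 1.91 in the other 4 arrays. For Gapdh it was 3.5 in the virgin control and between 0.73 and 1.52 in the others. The titles of both lactating arrays carry another date than those of the other 4, so that stage, date and age cannot be told apart for them. The virgin and lactating pairs share their genotypes, whereas the pregnant pair differs from both also in its alleles. Probe sets of 7 Y-linked genes, which should be dark in these females, had a median signal of 36.3 and a 90th percentile of 178.6. Brca1 gave signals of 137.0 and 486.5 in the virgin control and its mutant, 158.7 and 288.0 in the pregnant pair and 237.6 and 156.7 in lactation. The arrays read the 3' ends of transcripts, so this probe set does not check a deletion inside the gene.

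Collagen genes were mostly lower in the lactating than in the virgin gland. Of the 28 tested members, 17 fell and 3 rose at a limma adjusted p under 0.05, and the median log2 ratio was -1.14. Over all 11572 genes tested, the share lower was 28.5% and the share higher 24.2%, with a median of -0.10. Of the collagen genes 60.71% were lower and 10.71% higher. Log2 ratios are on the scale of log2(signal + 52.02), which understates changes of dim genes, and they are given with their SE from limma over 2 arrays per stage, with 2 residual degrees of freedom. Each array is scaled to a common mean, so a signal is relative to the other RNA on its array. A lower signal from a whole gland can come from fewer cells of a type, less RNA per cell or more RNA from other cells. These cannot be told apart. Of the 20 called members, 5 were called although 1 of the stages lay under the brightness filter, namely Col11a1, Col4a3, Col8a1, Col9a3 and Col13a1. Among the 21 members above the filter in both stages, 14 fell and 1 rose, and the matching share of all genes was not computed. In every setting that tested them, of 16, 14 of the 20 were called. The other 6 were Col11a1, Col4a5, Col6a2, Col13a1, Col16a1 and Col18a1, all of them lost without the virgin control.

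**Figure D1:**
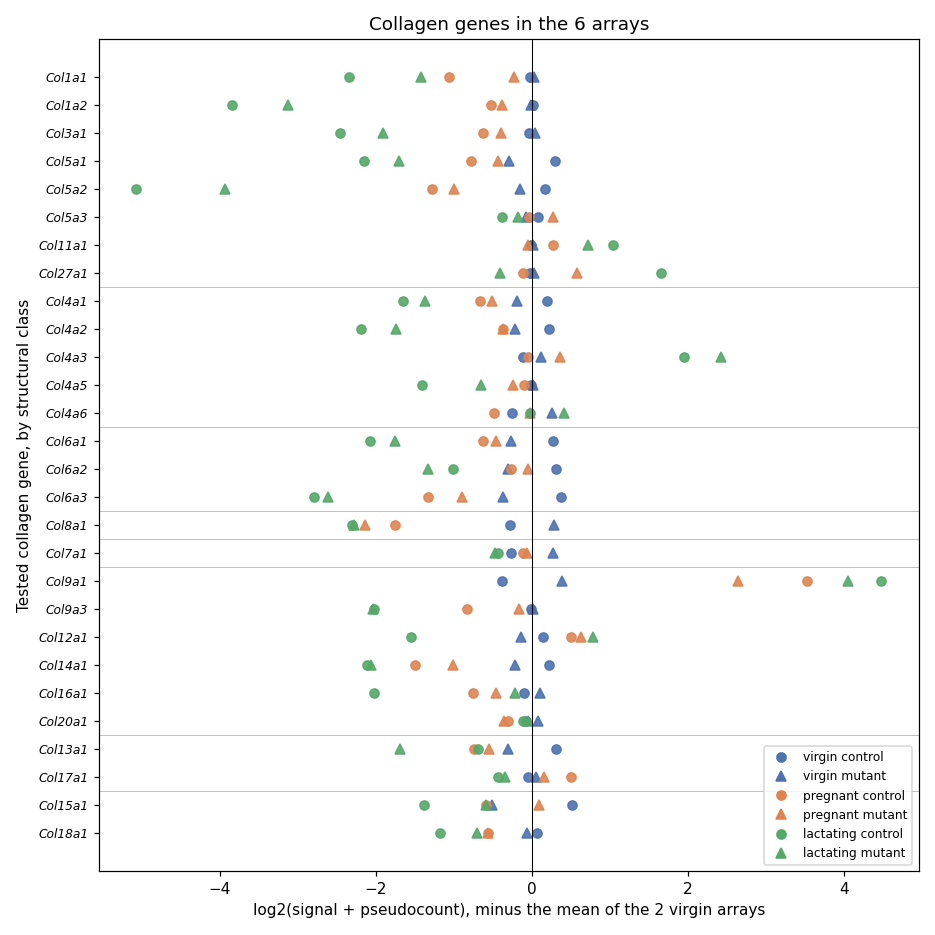
Log2(signal + pseudocount) of the 28 tested collagen genes in each of the 6 arrays, minus the mean of the 2 virgin arrays; circles are controls, triangles mutants, colours are stages and lines separate structural classes. Both lactating arrays lie far left for Col5a2, Col1a2 and Col6a3, and far right for Col9a1 and Col4a3.

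The fibrillar class had 8 tested members, of which 5 fell from virgin to lactating, 1 rose and 2 did not pass, with a median log2 ratio of -1.91. Col1a1 and Col1a2 encode the chains of type I collagen, the main collagen of tensile fibres. Col1a1 gave signals of 3737.2 and 3851.1 in the virgin control and its mutant, 1792.4 and 3225.7 in the pregnant pair, and 702.9 and 1388.4 in the lactating pair. Both lactating arrays were below all other arrays, and the log2 ratio of lactating to virgin was -1.88 ± 0.25 (limma adjusted p = 0.00099). Col1a2 gave 21534.4 and 20992.5 in the virgin pair, 14786.1 and 16308.0 in the pregnant pair, and 1435.5 and 2393.5 in the lactating pair. Virgin, pregnant and lactating arrays did not overlap, and the log2 ratio of lactating to virgin was -3.48 ± 0.23 (limma adjusted p = 0.0001).

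Col3a1, the chain of type III collagen, which forms fine fibres together with type I, gave signals of 35554.1 and 37542.1 in the virgin pair, 23708.4 and 27728.2 in the pregnant pair, and 6621.3 and 9664.4 in the lactating arrays. The 3 stages again did not overlap, and lactating to virgin was -2.18 ± 0.20 (limma adjusted p = 0.0002724). Type V collagen sits inside type I fibres and governs their assembly. Its chain gene Col5a2 gave 10406.8 and 8326.7, then 3804.3 and 4615.6, then 226.8 and 560.3, in the virgin, pregnant and lactating control and mutant. With -4.50 ± 0.32 (limma adjusted p = 0.0001216) it had the most negative ratio of the 28 members. Col5a1, another chain of type V, gave 2796.9 and 1827.9, 1292.2 and 1660.6, and 467.2 and 658.8 in the same order, a log2 ratio of -1.93 ± 0.28 (limma adjusted p = 0.001355). Both virgin arrays lay above the pregnant ones, and the lactating ones were lowest.

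None of the other 3 tested fibrillar genes passed as lower. Col5a3, a further chain of type V, ran from 754.9 in the lactating control to 1213.3 in the pregnant mutant, with overlapping virgin and pregnant arrays, and its lactating to virgin ratio of -0.28 ± 0.21 did not pass (limma adjusted p = 0.2852). Col27a1, a fibrillar collagen of developing cartilage, gave 368.2 and 381.7 in the virgin pair, 342.7 and 583.3 in the pregnant pair, and 1289.7 and 270.3 in the lactating arrays. The lactating control was the highest and the lactating mutant the lowest of its 6 arrays, and the ratio of 0.62 ± 0.56 did not pass (limma adjusted p = 0.3782). Another bright Col27a1 probe set gave 315.8 and 318.6, 200.5 and 229.1, and 400.1 and 87.9, with a lactating minus virgin difference of -0.55. Col11a1, a chain of cartilage fibres, gave 116.5 and 118.8 in the virgin pair, 152.1 and 111.6 in the pregnant pair, and 297.6 and 227.2 in the lactating pair. Both lactating arrays were highest, and it was called higher at 0.88 ± 0.31 (limma adjusted p = 0.04728). That call was lost, at 0.29, when arrays were centred on their medians, and it was also lost whichever array was left out. A dimmer probe set of Col11a1 gave 41.0 to 130.7 with a lactating minus virgin difference of -0.22.

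**Figure D2:**
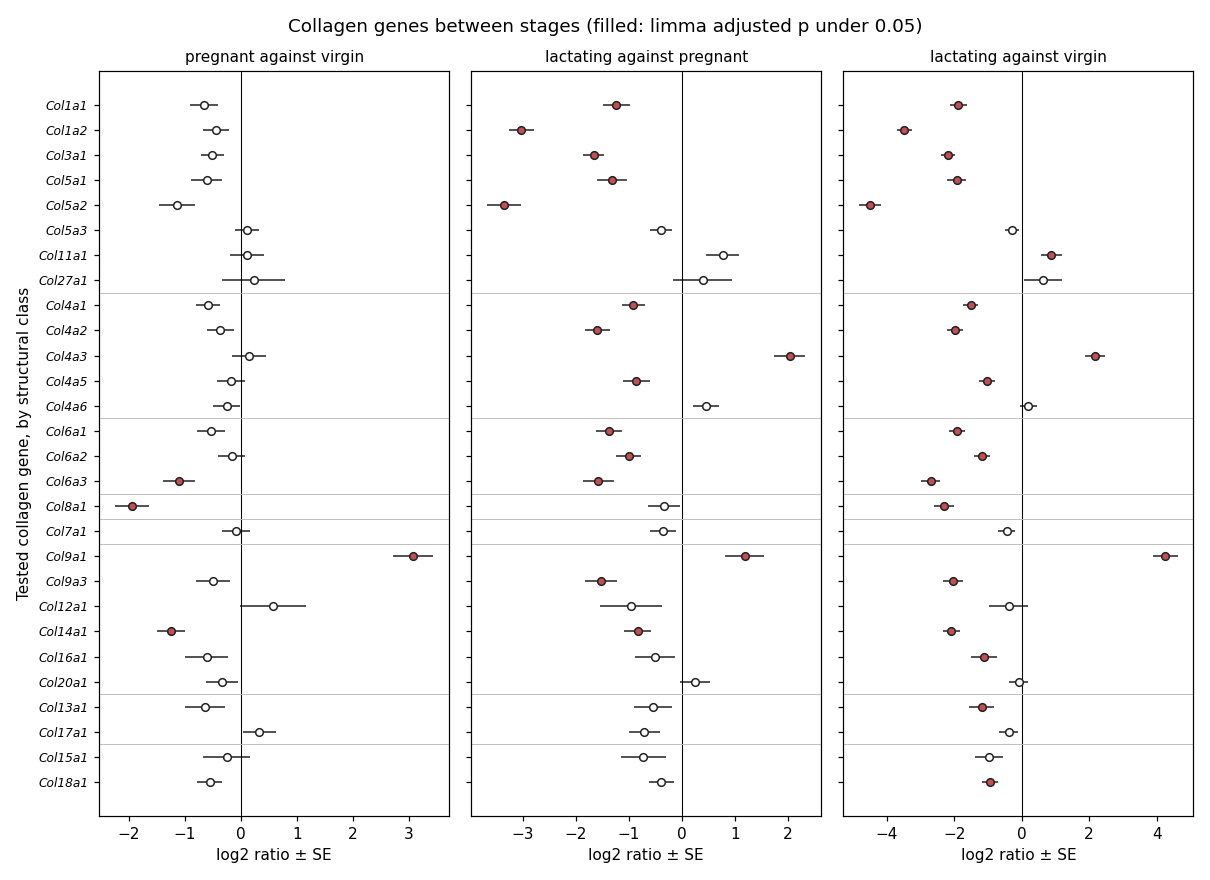
Log2 ratios ± SE of the 28 tested collagen genes for pregnant against virgin, lactating against pregnant and lactating against virgin, with 2 arrays per stage; filled points have a limma adjusted p under 0.05 and lines separate structural classes. Filled points number 4, 15 and 20 from left to right, and Col9a1 is filled on the right of 0 in all 3 panels.

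Promoters are printed for Col1a2 and Col3a1, fibrillar genes called lower in lactation under all alternatives run, and for Col9a1, the member that rose in every stage comparison. Each line holds the 250 bases before an annotated start, 5' to 3' on the gene's strand, from RefSeq in build GRCm38.p6, with exact matches to the searched motifs in capitals.
Col1a2, chr6:4505368-4505617, plus strand: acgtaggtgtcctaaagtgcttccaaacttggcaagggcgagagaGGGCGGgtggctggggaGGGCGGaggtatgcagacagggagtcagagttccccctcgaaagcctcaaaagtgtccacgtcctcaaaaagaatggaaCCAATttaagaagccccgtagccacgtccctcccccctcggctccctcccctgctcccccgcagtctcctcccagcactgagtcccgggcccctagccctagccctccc
Col3a1, chr1:45311288-45311537, plus strand: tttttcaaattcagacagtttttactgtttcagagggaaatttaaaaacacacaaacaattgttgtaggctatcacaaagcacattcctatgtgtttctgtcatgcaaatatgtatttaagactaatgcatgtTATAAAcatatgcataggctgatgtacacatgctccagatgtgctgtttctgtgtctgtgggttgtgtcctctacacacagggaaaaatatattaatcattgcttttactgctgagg
Col9a1, start 1, chr1:24177360-24177609, plus strand: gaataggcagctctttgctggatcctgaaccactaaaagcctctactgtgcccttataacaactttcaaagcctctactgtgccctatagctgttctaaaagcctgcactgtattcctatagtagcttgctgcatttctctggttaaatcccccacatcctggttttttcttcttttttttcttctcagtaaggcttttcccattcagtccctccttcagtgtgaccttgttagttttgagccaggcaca
Col9a1, start 2, chr1:24194953-24195202, plus strand: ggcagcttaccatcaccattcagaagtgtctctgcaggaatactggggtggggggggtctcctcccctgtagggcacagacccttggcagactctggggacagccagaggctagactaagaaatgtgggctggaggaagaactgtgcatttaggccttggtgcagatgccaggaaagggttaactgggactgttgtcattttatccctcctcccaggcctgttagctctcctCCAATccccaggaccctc
The motifs, searched on both strands, were CCAAT, the GC box GGGCGG, the TATA box TATAAA and TTCNNNGAA, the form bound by Stat5, a factor of the prolactin response. None of the 4 patterns is contained in another. Col1a2 held CCAAT 109 bases before its start and GC boxes at 205 and 188 bases, Col3a1 held TATAAA at 117 bases, the first start of Col9a1 held no match and the second held CCAAT at 18 bases. The TTCNNNGAA pattern was in none of these windows, which says only that the letters are not there. Among 38 promoters of 35 collagen genes, CCAAT was in 34.2%, the GC box in 57.9%, TATAAA in 13.2% and TTCNNNGAA in 5.26%. Among all 32851 promoters of the table the shares were 33.8%, 32.7%, 12.4% and 7.02%. The probe sets do not tell which start of Col9a1 was used.

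Type IV collagen of basement membranes has 6 chains, of which 5 were tested. From virgin to lactating, 3 fell, 1 rose and 1 did not pass, with a median log2 ratio of -1.03. Col4a1, a chain of the network found in nearly all basement membranes, gave 13782.5 and 10545.3 in the virgin control and its mutant, 7564.1 and 8450.6 in the pregnant pair, and 3795.4 and 4620.6 in the lactating arrays. The stages did not overlap, and lactating to virgin was -1.51 ± 0.22 (limma adjusted p = 0.001347). Its partner Col4a2 gave 6748.2 and 4956.8, 4465.0 and 4467.4, and 1230.6 and 1690.1 in that order, with -1.97 ± 0.24 (limma adjusted p = 0.000702). Virgin arrays were again highest and lactating arrays lowest. Col4a5, a chain of more restricted basement membranes, gave 2164.0 and 2212.4, 2037.7 and 1833.0, and 792.0 and 1374.2, and fell by 1.03 on the log2 scale (SE 0.25, limma adjusted p = 0.01151). That fall was 0.62 without the lactating control, where the call was lost.

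Col4a3, which pairs with the Col4a4 and Col4a5 chains in basement membranes of kidney and lung, rose. Its signals were 71.6 and 91.9 in the virgin pair, 76.4 and 119.2 in the pregnant pair, and 462.7 and 662.0 in the lactating pair. Both lactating arrays stood apart from the other 4, which lay under the Y-linked 90th percentile of 178.6. The log2 ratio of lactating to virgin was 2.18 ± 0.30 (limma adjusted p = 0.00105), and it was 1.59 with arrays centred on their medians. A dimmer probe set of Col4a3 gave 9.4 to 52.3, with differences of 0.18 for lactating minus virgin and -0.46 for lactating minus pregnant. With probe sets averaged, Col4a3 was too dim to be tested. Col4a4, its head-to-head neighbour, was too dim to be tested and gave 53.8 to 136.7. Col4a6, a chain of smooth-muscle and skin basement membranes, gave 254.2 and 382.8, 208.5 and 307.8, and 306.7 and 434.8, in which the mutant was above the control at each stage. Its stages overlapped, and lactating to virgin was 0.20 ± 0.24 (limma adjusted p = 0.5178). A dimmer Col4a6 probe set gave 274.7 and 287.3, 75.8 and 101.5, and 38.7 and 136.8, with a lactating minus virgin difference of -1.35.

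All 3 tested chains of the beaded filament class fell from virgin to lactating, with a median of -1.92. They are the chains of classical type VI collagen. Col6a1 gave 5063.1 and 3473.9 in the virgin control and its mutant, 2708.2 and 3034.4 in the pregnant pair, and 954.5 and 1205.0 in the lactating arrays. The stages did not overlap, and the log2 ratio was -1.92 ± 0.25 (limma adjusted p = 0.0008204). Col6a3, the longest chain of the trimer, gave 6671.2 and 3966.3, 2020.5 and 2730.2, and 700.0 and 799.9, with -2.70 ± 0.29 (limma adjusted p = 0.0004322). Col6a2 gave 5069.9 and 3290.2, 3392.7 and 3927.2, and 2000.7 and 1593.1, with -1.17 ± 0.24 (limma adjusted p = 0.005071). For Col6a2 the virgin and pregnant arrays overlapped and both lactating arrays were lower.

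The short-chain gene Col8a1, which encodes a chain of sheet-like networks around vessels, gave 653.4 and 982.5 in the virgin pair, 200.0 and 141.8 in the pregnant pair, and 121.0 and 123.1 in the lactating arrays. The virgin pair stood apart from the other 4 arrays, and lactating to virgin was -2.30 ± 0.30 (limma adjusted p = 0.0009291). Dimmer Col8a1 probe sets gave lactating minus virgin differences of -0.27 and 0.30. In the first of these the lactating mutant was highest, at 281.4, against 136.1 and 188.8 in the virgin pair. The partner chain Col8a2 was too dim to be tested, at 32.3 to 94.8. Col7a1 makes the fibrils that anchor epithelium to the tissue below it. It ran from 293.0 in the lactating mutant to 525.8 in the virgin mutant and did not pass, at -0.45 ± 0.25 (limma adjusted p = 0.1668).

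Col9a1 had the most positive ratio of all members. It encodes a chain of type IX collagen, which coats the fibres of cartilage. Its signals were 604.7 and 1062.8 in the virgin control and its mutant, 9776.0 and 5273.1 in the pregnant pair, and 18958.0 and 14048.6 in the lactating arrays. The 3 stages did not overlap, and lactating to virgin was 4.26 ± 0.36 (limma adjusted p = 0.0001906). A second Col9a1 probe set gave 244.1 and 277.4, 1920.1 and 926.1, and 4859.9 and 3170.0 in the same arrays, in the same order of stages. Of the other type IX chains, Col9a3 gave 443.4 and 454.4, 228.2 and 395.5, and 71.4 and 69.7, and fell, at -2.03 ± 0.30 (limma adjusted p = 0.001467). Dimmer Col9a3 probe sets gave lactating minus virgin differences of -1.92 and 0.74. The Col9a2 chain was not tested, at 106.6 and 260.5, 14.3 and 112.2, and 13.5 and 17.6, and its lactating arrays lay below the virgin ones.

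Because type IX is a collagen of cartilage, markers of cartilage cells stand beside it. Of 5 chondrocyte markers, 4 were too dim to be tested: Acan ran from 44.4 to 282.5, Comp from 80.0 to 213.5, Matn1 from 4.3 to 121.8 and Hapln1 from 3.4 to 110.2. The fifth, the transcription factor Sox9, gave 309.3 and 444.2 in the virgin pair, 1477.2 and 1022.1 in the pregnant pair, and 1007.4 and 1548.5 in the lactating arrays. The sum of the 5 markers, most of it from Sox9 in each array, was 476 and 739 in the virgin pair. It was 1828 and 1285 in the pregnant and 1735 and 1945 in the lactating arrays. Sox10, listed here with the Schwann cell markers and also made in mammary epithelium, gave 1156.4 and 1544.3, 3214.7 and 3555.0, and 9450.4 and 12068.5. Mbp, the other tested gene of that list, went the opposite way, at 1709.2 and 1219.6, 886.7 and 848.7, and 488.8 and 271.2. Summed milk protein signals were 32889 and 42718, 112450 and 81550, and 155824 and 177192 in the same arrays. The part of these cells or genes in the Col9a1 signal was not tested.

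**Figure D3:**
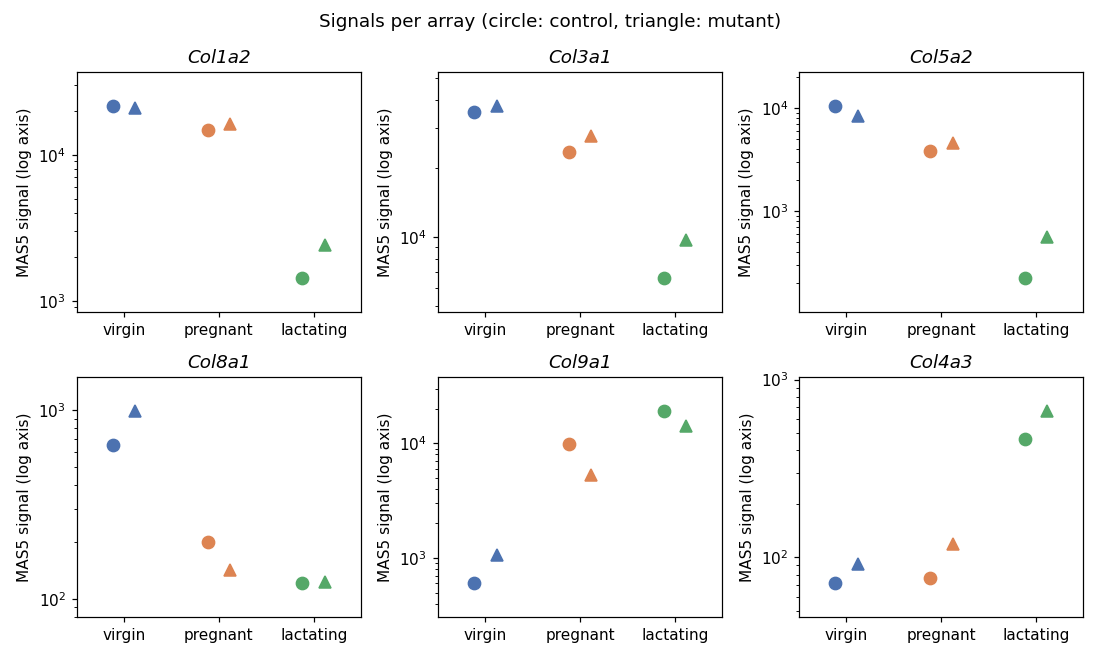
MAS5 signals on log axes of 6 collagen genes in the virgin, pregnant and lactating arrays, 1 mouse per point, circles for controls and triangles for mutants. Col1a2, Col3a1 and Col5a2 step down and Col9a1 steps up at each stage, Col8a1 is high only in the virgin pair and Col4a3 only in the lactating pair.

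Among the other fibril-associated members, Col14a1, which binds the surface of type I fibres, gave 2867.6 and 2122.5 in the virgin pair, 842.1 and 1201.9 in the pregnant pair, and 530.1 and 552.4 in the lactating arrays. The stages did not overlap, and lactating to virgin was -2.09 ± 0.25 (limma adjusted p = 0.0006525). Col16a1, which links fibres to microfibrils, gave 1790.0 and 2053.5, 1112.1 and 1383.0, and 433.9 and 1647.0. It was called lower at -1.12 ± 0.38 (limma adjusted p = 0.0395), although the lactating mutant lay above both pregnant arrays. Without the lactating control the ratio was -0.34 and the call was lost. Col12a1, a collagen of dense connective tissue, gave 196.3 and 152.1, 267.5 and 297.2, and 24.6 and 335.3, so that its lowest and highest values were the lactating pair, and it did not pass (limma adjusted p = 0.604). Col20a1 ran from 166.8 to 243.6 and did not pass.

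In the last 2 classes, Col13a1, a transmembrane collagen of cell contacts, gave 422.9 and 256.3 in the virgin pair, 176.7 and 210.2 in the pregnant pair, and 184.7 and 66.3 in the lactating pair, and was called lower at -1.19 ± 0.36 (limma adjusted p = 0.0259). Both virgin arrays were above the other 4, and the call was lost at -0.80 without the lactating mutant. Col17a1, a part of the hemidesmosomes that hold basal epithelial cells to the basement membrane, ran from 151.3 in the lactating control to 336.2 in the pregnant control and did not pass, at -0.39 ± 0.29 (limma adjusted p = 0.288). The multiplexins Col15a1 and Col18a1 lie in basement membranes, and the end of Col18a1 is released as endostatin. Col18a1 gave 1175.0 and 1074.7, 746.1 and 746.5, and 467.7 and 666.3, and fell, at -0.94 ± 0.23 (limma adjusted p = 0.01015), a call lost at -0.68 without the lactating control. Col15a1 gave 1451.4 and 685.6, 649.0 and 1068.3, and 352.6 and 650.1, with overlapping stages, and did not pass (limma adjusted p = 0.08394).

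The 14 untested members ran from 3.9, for Col10a1 in the virgin control, to 382.6, for Col2a1 in the lactating control. They were Col2a1, Col11a2, Col24a1, Col4a4, Col6a4, Col6a5, Col8a2, Col10a1, Col9a2, Col19a1, Col22a1, Col23a1, Col25a1 and Col26a1. Col2a1, the main collagen of cartilage, gave 92.0 and 124.3 in the virgin pair, 17.3 and 31.9 in the pregnant pair, and 382.6 and 319.0 in the lactating pair, which was highest. Col11a2 gave 57.8 and 45.2, 39.3 and 24.2, and 206.2 and 92.4. With no filter on brightness, 21 of 42 members were called from virgin to lactating, 3 higher and 18 lower. Over all genes 7855 of 18193 were then called, 4388 higher and 3467 lower. Col2a1 was added among the members that rose and Col9a2 among those that fell, and Col11a1 was lost.

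From pregnancy to lactation, 13 of the 28 tested collagen genes fell and 2, Col4a3 and Col9a1, rose. The median log2 ratio was -0.78, against -0.03 over all genes. Of the members 46.43% were lower and 7.143% higher, against 17.1% and 15.5% of all genes tested. This comparison shares its lactating arrays with the one against virgin, so both are given side by side and not as support for each other, and pregnant and lactating mice differ also in alleles, age and array date. Among the 21 members above the filter in both stages, 12 fell and 1 rose, again without a matching share of all genes. Without the pregnant mutant 5 were called instead of 15. These were Col1a2, Col3a1, Col5a2, Col4a2 and Col4a3, which were also called in every setting that tested them.

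The members that fell from pregnancy to lactation included 5 of 8 fibrillar genes, 3 of 5 of type IV and all 3 of type VI. Col5a2 had the most negative log2 ratio, -3.36 ± 0.32 (limma adjusted p = 0.00138), and Col1a2 followed with -3.03 ± 0.23 (limma adjusted p = 0.0008339). Col3a1 gave -1.67 ± 0.20 (limma adjusted p = 0.002886), Col1a1 -1.24 ± 0.25 (limma adjusted p = 0.01186) and Col5a1 -1.32 ± 0.28 (limma adjusted p = 0.01333). In the basement membrane Col4a2 fell, at -1.60 ± 0.24 (limma adjusted p = 0.004677), and Col4a3 rose, at 2.03 ± 0.30 (limma adjusted p = 0.004395). Ratios of type VI were -1.58 ± 0.29 for Col6a3, -1.38 ± 0.25 for Col6a1 and -1.01 ± 0.24 for Col6a2, with limma adjusted p from 0.007687 to 0.01754. Col9a3 fell, at -1.53 ± 0.30 (limma adjusted p = 0.01056), but its dimmer probe sets gave lactating minus pregnant differences of 0.28 and 0.87. Col9a1 rose by 1.18 ± 0.36 (limma adjusted p = 0.04065), a call lost at 0.76 with median centring, at 0.65 without the pregnant mutant and at 0.99 without the lactating control.

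From virgin to pregnancy fewer collagen genes passed. Of the 28 tested, 3 fell, namely Col6a3, Col8a1 and Col14a1, and 1, Col9a1, rose. That is 10.71% lower against 8.02% of all genes and 3.571% higher against 6.56%, shares near the background. The median log2 ratio was -0.41, against -0.06 over all genes, and 21 of 28 members had a negative ratio. Col9a1 rose by 3.08 ± 0.36 (limma adjusted p = 0.003692) and was the only one of the 4 called in all 17 settings. Col8a1 gave -1.95 ± 0.30 (limma adjusted p = 0.008461), Col14a1 -1.25 ± 0.25 (limma adjusted p = 0.01907) and Col6a3 -1.11 ± 0.29 (limma adjusted p = 0.04195). Dimmer Col8a1 probe sets gave pregnant minus virgin differences of -0.52 and 0.46. Without the pregnant control 2 members remained called, with Col14a1 lost at -0.91 and Col6a3 at -0.76. Without the virgin control the same 2 were lost, at -0.90 and -0.59, and without the virgin mutant Col8a1 was lost at -1.58. Col5a2, at -1.14 ± 0.32, lay just past the threshold (limma adjusted p = 0.05457). Pregnant and virgin mice differ also in their Brca1 alleles, in Cre and in age, and no p53 allele is given for the pregnant pair. Stage and genotype thus cannot be told apart here.

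The array scaling bears on these counts. When each array was centred on its median signal, the median log2 ratio of all genes moved to -0.24 for pregnant against virgin, -0.45 for lactating against pregnant and -0.69 for lactating against virgin. The share of higher genes among all called went from 44.99% to 27.52%, from 47.44% to 17.48% and from 46% to 19.15%. Among the 28 collagen genes the calls became 1 higher and 4 lower, 1 higher and 17 lower, and 2 higher and 21 lower. Lower calls over all 11572 genes grew too, from 928 to 1351, from 1984 to 3856 and from 3294 to 5739. Col5a2, Col1a2 and Col3a1 fell and Col4a3 rose from virgin and from pregnancy to lactation under both scalings.

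Most called genes with more than 1 bright probe set showed the same direction in each. For lactating against virgin, 11 called genes had 12 other bright probe sets, and 12 of 12 had the same sign. Sizes differed, however: the other bright probe set gave -0.89 in place of -1.88 for Col1a1, -0.94 in place of -2.09 for Col14a1, -0.20 in place of -1.17 for Col6a2, -0.37 in place of -1.03 for Col4a5 and -0.41 in place of -0.94 for Col18a1. It was more negative for Col3a1, at -3.80 in place of -2.18. When a gene's probe sets were averaged, the pregnant against virgin ratio of Col14a1 was -0.54 and its call was lost. For lactating against pregnancy the count was 9 of 11, with exceptions at Col4a5 and Col6a2. The other Col6a2 probe set gave 1567.4 and 1928.1 in the pregnant and 2086.1 and 1761.8 in the lactating arrays, so the fall of Col6a2 between these stages rests on 1 probe set.

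Log2 ratios of chains that assemble into 1 molecule were unequal. From virgin to lactating the log2 ratio of Col1a1 minus that of Col1a2 was 1.60, so Col1a2 fell more. Col5a1 minus Col5a2 was 2.57. Col6a1 minus Col6a3 was 0.78 and Col6a1 minus Col6a2 was -0.75. Col4a1 minus Col4a2 was 0.45, and Col4a5 minus Col4a6 was -1.23. For type IX, Col9a1 minus Col9a3 was 6.29, with opposite directions on the chosen probe sets. These differences of ratios are values without a test. Dimmer Col9a3 probe sets gave -1.92 and 0.74 from virgin to lactating, so the type IX difference also depends on the probe set. Col4a1 with Col4a2, Col4a3 with Col4a4 and Col4a5 with Col4a6 are neighbours in the genome, as are Col6a1 with Col6a2 and Col3a1 with Col5a2. The 300-base windows around the starts of Col4a1 and Col4a2, on opposite strands, overlap by 78 bases, and both genes fell from virgin to lactating. Col3a1 and Col5a2 fell too, with a difference of 2.32 between their ratios that depends on the probe set, since their other bright probe sets gave -3.80 and -3.96. The other bright probe sets gave -0.89 for Col1a1 and -3.12 for Col1a2, and -3.21 and -1.51 for Col5a1. The other bright one for Col4a5 gave -0.37, and a dimmer one for Col4a6 gave -1.35. Col4a5 minus Col4a6 thus also depends on the probe set.

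No collagen gene passed the test between Brca1 mutants and controls. With the stage as a block, limma called 0 of 28 members and 0% of all genes, and the lowest adjusted p of a member was 0.9447. At an unadjusted p under 0.05 there were 3 members and 539 of all genes. The median log2 ratio of the members was 0.09, against 0.03 over all genes, with 20 positive and 8 negative. It was 0.26 without the virgin pair, 0.10 without the pregnant pair and -0.04 without the lactating pair. With 3 pairs of differing alleles and stages, a p that misses the threshold does not show that the genotypes are alike.

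Within each stage a ratio rests on 1 mouse against 1 and carries no test. In the virgin pair 14 members were higher and 14 lower in the mutant, with a median of -0.01, and Col15a1 was at least 2-fold lower, at -1.03. The corresponding shares of all genes in that pair were 1.44% higher and 1.24% lower by 2-fold or more. In the pregnant pair 22 members were higher and 6 lower, with a median of 0.20 against 0.02 over all genes, and none differed 2-fold, against 1.11% of all genes higher and 0.907% lower. In the lactating pair 21 were higher and 7 lower, with a median of 0.30 against 0.04. There Col12a1 (2.34), Col16a1 (1.81) and Col5a2 (1.13) were at least 2-fold higher by log2 ratio and Col27a1 (-2.06) and Col13a1 were at least 2-fold lower, against 3.64% and 2.72% of all genes. The lactating mutant also had higher summed markers than its control for fibroblasts, 4231 against 2977, for luminal cells, 61945 against 34061, and for myoepithelium, 48028 against 35300. In the pregnant pair the fibroblast sum was 15269 in the mutant and 12254 in the control, while the luminal sum was 35064 against 47701 and the myoepithelial 31536 against 36814. In the virgin pair these sums were 27099 against 36917, 41363 against 36534 and 19810 against 17250. The part of these cells in the ratios was not tested.

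**Figure D4:**
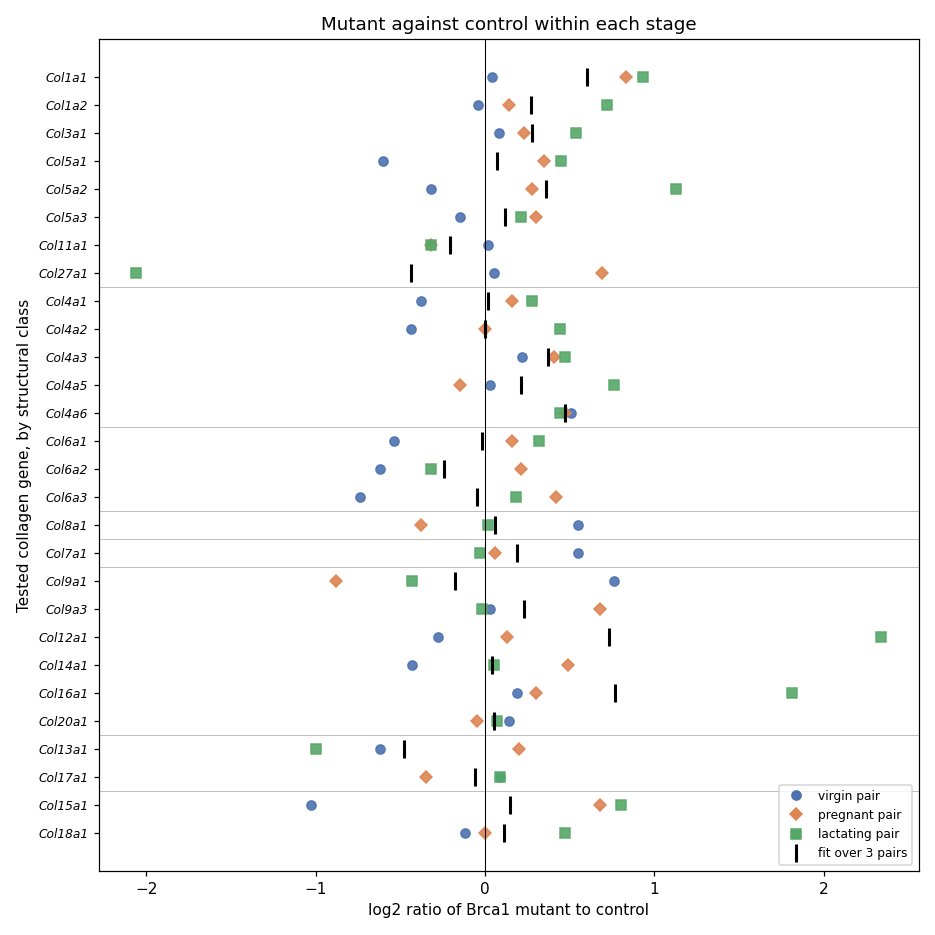
Log2 ratio of Brca1 mutant to control for the 28 tested collagen genes in the virgin, pregnant and lactating pair, 1 mouse against 1, with black bars for the fit over the 3 pairs. The points of most genes lie on both sides of 0, and the lactating pair holds the widest ratios, from -2.06 for Col27a1 to 2.34 for Col12a1.

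In the mutant 5 members were higher in all 3 pairs and 0 were lower in all 3, against 15% and 10.6% of all genes. Col1a1 gave log2 ratios of 0.04, 0.83 and 0.93 in the virgin, pregnant and lactating pairs, and 0.60 ± 0.21 in the fit. Col4a6 gave 0.51, 0.47 and 0.44, the most even of the 5, with 0.47 ± 0.20 in the fit. Col16a1 gave 0.19, 0.30 and 1.81, so its fitted 0.77 ± 0.31 leans on the lactating pair and was 0.25 without it. Col3a1 gave 0.08, 0.23 and 0.54, and Col4a3 gave 0.22, 0.41 and 0.47. The most negative statistics belonged to Col13a1 (-0.48 ± 0.29), Col6a2 (-0.24 ± 0.19), Col27a1 (-0.44 ± 0.46) and Col11a1 (-0.21 ± 0.26), and each of these 4 was positive in at least 1 pair. Each had a limma adjusted p of at least 0.9447.

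Genes that process collagen were counted from lists of the pathway. Collagen chains are hydroxylated and folded in the endoplasmic reticulum, trimmed outside the cell, and cross-linked into fibres. Of 19 tested chaperones and modifying enzymes, 6 fell and 4 rose from virgin to lactating. These shares, 31.58% and 21.05%, were near the 28.5% and 24.2% of all genes. Crtap, a subunit of the prolyl 3-hydroxylase complex, fell, at -1.62 ± 0.22 (limma adjusted p = 0.001025), as did the prolyl 4-hydroxylase subunit P4ha1 at -1.86 ± 0.28 (limma adjusted p = 0.001511). Serpinh1, the collagen chaperone Hsp47, gave -1.13 ± 0.29 (limma adjusted p = 0.01299). P4hb, which is also a general protein disulphide isomerase, rose at 1.45 ± 0.19 (limma adjusted p = 0.000897). Creb3l1, a membrane-bound factor known to act on type I collagen genes in bone, gave 233.3 and 193.1 in the virgin, 540.4 and 610.3 in the pregnant, and 2981.7 and 2006.2 in the lactating arrays. It rose by 3.24 ± 0.24 (limma adjusted p = 0.000125), opposite in direction to Col1a1 and Col1a2.

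Outside the cell, 3 of 4 tested procollagen proteinases and enhancers fell from virgin to lactating and none rose. The lists that follow are short, and the shares of all genes were 28.5% lower and 24.2% higher. They were Pcolce (-2.99 ± 0.27, limma adjusted p = 0.000239) and Pcolce2 (-3.19 ± 0.29, limma adjusted p = 0.000252), which enhance the trimming of procollagen, and the proteinase Bmp1 (-1.32 ± 0.23, limma adjusted p = 0.002524). Of 3 tested cross-linking enzymes, Loxl1 fell, at -3.78 ± 0.35 (limma adjusted p = 0.000263), and Lox fell, at -2.28 ± 0.40 (limma adjusted p = 0.002692). Of 7 receptors and uptake genes 2 fell, a share of 28.57% that is near that of all genes. They were the collagen receptor kinase Ddr2 (-2.14 ± 0.21, limma adjusted p = 0.000344) and the uptake receptor Mrc2 (-2.06 ± 0.30, limma adjusted p = 0.001264). Of 4 tested collagen-cleaving proteinases 2 fell, Mmp2 at -1.72 ± 0.22 and Ctsk at -1.38 ± 0.24, with limma adjusted p of 0.000755 and 0.002857. Among 11 inducers Tgfb3 rose, at 2.23 ± 0.32 (limma adjusted p = 0.001304), and 2, Tgfbr2 and Pdgfb, fell, shares of 9.091% and 18.18%.

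Over all genes fewer passed between the other stages than from virgin to lactating. In each of these lists fewer passed from virgin to pregnancy. Between pregnancy and lactation, fewer passed only among the modifying enzymes and among the procollagen proteinases and enhancers. From pregnancy to lactation 2 of 19 modifying enzymes fell and 3 rose, 2 of 4 procollagen proteinases and enhancers, 2 of 3 cross-linking enzymes and 3 of 4 cleaving proteinases fell, 1 of 7 receptors fell and 1 rose, and 2 of 11 inducers fell and 1 rose. Of all genes 17.1% fell and 15.5% rose, against 10.53% and 15.79% of the modifying enzymes. From virgin to pregnancy the genes that passed were P4hb, Creb3l1 and Tgfb2, which rose, and Ddr2 and Mmp9, which fell, beside 6.56% of all genes higher and 8.02% lower. Between genotypes 0 genes of any of these lists passed.

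Markers of some cell types were lower in lactation, as most collagen genes were, and markers of others were higher. From virgin to lactating 8 of 10 fibroblast markers fell and none rose, with a median log2 ratio of -2.94, and their summed signals were 36917 and 27099 in the virgin, 12254 and 15269 in the pregnant, and 2977 and 4231 in the lactating arrays. Summed fibrillar collagen signals were 75738 and 74208, 46920 and 55534, and 12392 and 16524 in the same arrays. Pdgfra, the receptor that marks most fibroblasts, went from 5137.9 and 4022.5 in the virgin to 61.0 and 213.2 in the lactating pair. From virgin to pregnancy 4 of 10 fibroblast and 3 of 6 endothelial markers fell, and 3 of 6 myoepithelial and 6 of 6 skeletal muscle markers rose. Of all genes 8.02% were then lower and 6.56% higher. From pregnancy to lactation 7 fibroblast markers fell and 1 rose, beside 17.1% of all genes lower and 15.5% higher. Of 6 endothelial markers 5 fell from virgin to lactating, as did 4 of 5 adipocyte and 3 of 4 macrophage markers, beside 28.5% of all genes lower and 24.2% higher. Of 6 myoepithelial markers 4 rose, 1 of 6 luminal markers rose, a share of 16.67%, and 5 of 6 skeletal muscle markers rose, with muscle sums of 31374 and 10462 in the virgin, 115931 and 125651 in the pregnant, and 62838 and 61189 in the lactating arrays. The part of these cell types in the collagen differences was not tested.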

How the data were processed

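Total RNA of 6 mammary glands was hybridised to 6 mouse 430 2.0 arrays, 1 mouse each, per the labels. The deposited values are linear signal intensities that the authors made with MAS5, per the submitters' processing notes. The MAS5 version is not stated there. Of 45101 probe sets 64 were controls and 34945 carried 1 gene symbol. Gene names come from the platform annotation. Signals were kept at their scaling and turned into log2(signal + 52.02), 52.02 being the 25th percentile of all signals. A gene entered the test where its mean log2 value reached 7.715, the median over all probe sets.

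All 11572 tested genes were fitted in limma 3.58.1 under R 4.3.3 with moderated variances that follow a trend, with stage and genotype as terms over 6 arrays, Benjamini-Hochberg adjustment and a threshold of 0.05. Pairs rest on the stage in the labels. The 2 arrays of a stage differ in genotype, and the number of arrays limits precision. Medians of lists are plain summaries with no test. The code was tested on simulated data. The collagen genes, the lists and the tests were chosen with earlier results of these data known. Every member is accounted for. Values in all arrays were to be given for the brightest 2 members of a class, the 8 highest and 8 lowest called ratios of a stage comparison, the 4 highest and 4 lowest statistics between genotypes, and partner chains. Other members, pathway genes and markers with values were picked after their values were seen. Alternatives were quantile normalization, median centring, pseudocounts of 14.9 and 168.4, a filter at the 75th percentile or none, and a gene's probe sets averaged. Another put probe sets of the cross-hybridising _x_at kind last in the choice for a gene. Further ones were no variance trend, no genotype term or stage block, no lactating arrays, and leaving out each array or pair.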

Additional observations from a re-analysis of the deposited data

How the results depend on the processing

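The collagen calls from virgin to lactating were 20 and ran from 14 to 21 with 1 array left out. From pregnancy to lactation they were 15, with 5 to 17 when 1 array was left out, and from virgin to pregnancy 4, with 2 to 6. Between genotypes the count was 0 under all alternatives run. Over all genes the pregnant against virgin count was 1687, against 1117 after quantile normalization, 2776 without the lactating arrays and 315 to 2779 with 1 array left out. For lactating against pregnancy it was 3775, with 2207 under a filter at the 75th percentile and 1287 to 3655 with 1 array left out. For lactating against virgin it was 6100, with 3689 under that filter, which leaves fewer genes to test, and 3552 to 5771 with 1 array left out. Between genotypes Col27a1 changed sign, from -0.44 to 0.37 without the lactating pair, and ran from -1.01 to 0.37 over the pairs left out. Of the other values under alternatives, for the collagen genes called between stages and those named between genotypes, 661 kept their direction and side of the threshold and 59 kept their direction and lost their call. The cause of these changes was not tested. Some alternatives, such as no variance trend, leave the ratio itself unchanged, and the values between genotypes had no call to lose. Where 1 array was left out of a stage, the lone array was assumed to vary like the others. The genotype test compares the mice of each stage as a pair, and without the stage as a block limma also called 0 genes, with 19 at an unadjusted p under 0.05. No detection calls were used here, so dim probe sets were judged against Y-linked ones.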
